A study of Rattus norvegicus with 71 samples.

Results

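The comparison is that of aortas from 24-month-old rats of 2 kinds, Brown Norway (BN) and Fischer344 x Brown Norway (FBN, a hybrid of the Fischer344 and Brown Norway strains). Its members are the arrays that the labels give as thoracic artery at 24 months, 6 of each strain, so 12 of the 71 arrays of the series. The other arrays cover the same vessel at 6 months (12 arrays) and 15 months (11 arrays) and the mesenteric artery of both strains at all 3 ages. The labels give the strain, the age and the mass of each tissue piece. They do not give the sex, the generation of the cross or whether each array is a separate animal, so p-values measure only the spread between arrays. They cite a model of collateral arteries made by closing a neighbouring artery, without saying which vessels came from it. Nothing in them sets the 24-month groups apart except strain and tissue mass.

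The thoracic aorta is an elastic artery. Its wall holds an endothelial lining, layers of contractile smooth muscle between sheets of elastin, and an outer adventitia of fibroblasts and nerves. In rodents it is wrapped in perivascular fat of the brown type, whose cells burn fatty acids in mitochondria that carry the uncoupling protein Ucp1 and also make fatty acids from glucose. An array of a whole aortic piece therefore reads wall and fat together. In such bulk samples fewer cells of a type and less RNA per cell cannot be told apart. FBN rats carry Fischer alleles that BN rats lack at many genes.

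Values are MAS5 signals, brightness units on a linear scale that the submitters had scaled to a common mean per array. Each group's signals are given as the lowest, the median and the highest of its 6 arrays. Differences are FBN minus BN on the log2 scale, with their standard error from a limma fit of all 35 aorta arrays. Adjusted p-values are Benjamini-Hochberg values over all 16717 probe sets tested, and a probe set counts as changed where this value is under 0.05. Genes said to be higher or lower passed that test. Signals went into the log2 as deposited, and a difference is therefore uncertain in size where the lower group is near background.

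The arrays differed in more than strain. Strain markers taken from mesenteric arrays of the younger ages, 25 in each direction, placed 12 of 12 arrays on the side of their own label, with scores of -1.77 to -1.62 in BN and 0.89 to 1.09 in FBN. Smooth muscle genes were bright in every array (Myh11, smooth muscle myosin, 30604, 36150.3 and 42204 in BN and 30003, 56116 and 61449 in FBN), and so was Ucp1 (73208, 75221 and 102351 in BN and 39405, 60247 and 117799 in FBN), so markers of the aortic wall and of brown fat were bright in both strains. Tissue mass was 21.7, 24.9 and 29.4 mg in BN (25.40 ± 2.79, SD, n = 6) and 9.0, 18.2 and 29.8 mg in FBN (18.55 ± 7.46, SD, n = 6). The exact two-sided permutation test of that difference gave p = 0.0693 and 0.173 when adjusted over the 5 array measures tested. Without the heaviest FBN piece (array 4) the exact permutation p was 0.013, unadjusted, and with any other single piece left out it was 0.0649 to 0.139. Poly-A spike-ins, foreign transcripts added to the RNA before labelling, averaged 8.77 to 8.99 log2 units in BN and 9.17 to 11.74 in FBN. Those groups did not overlap, and the exact permutation p was 0.00216, the smallest that 6 arrays against 6 can give (0.0108 adjusted). Ratios of 3' to 5' signal of Gapdh and Actb and array medians gave adjusted exact permutation p-values of 0.173 to 0.277. FBN array 1 stood apart: across probe sets its median correlation was 0.872 with the other FBN arrays and 0.953 with the BN arrays, whereas each of the other FBN arrays correlated more closely with its own group. Their part in the results was not tested beyond the fits described below.

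Mean signals of fat and muscle genes lay in opposite directions between the groups, and are given here without a test. The mean log2 signal of 11 tested brown adipocyte markers was 11.79, 12.35 and 12.84 in BN and 10.55, 11.44 and 12.54 in FBN, and that of 18 contractile genes was 13.01, 13.35 and 13.70 in BN and 12.96, 14.26 and 14.58 in FBN. The groups overlapped in both scores only because of FBN arrays 1 and 5 for fat, and of FBN array 1 for muscle. That array had the highest Ucp1 signal of all 12, 117799, and the lowest contractile mean. FBN array 3, with the lowest fat mean, had the highest contractile mean and the highest spike-in signal.

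**Figure D1:**
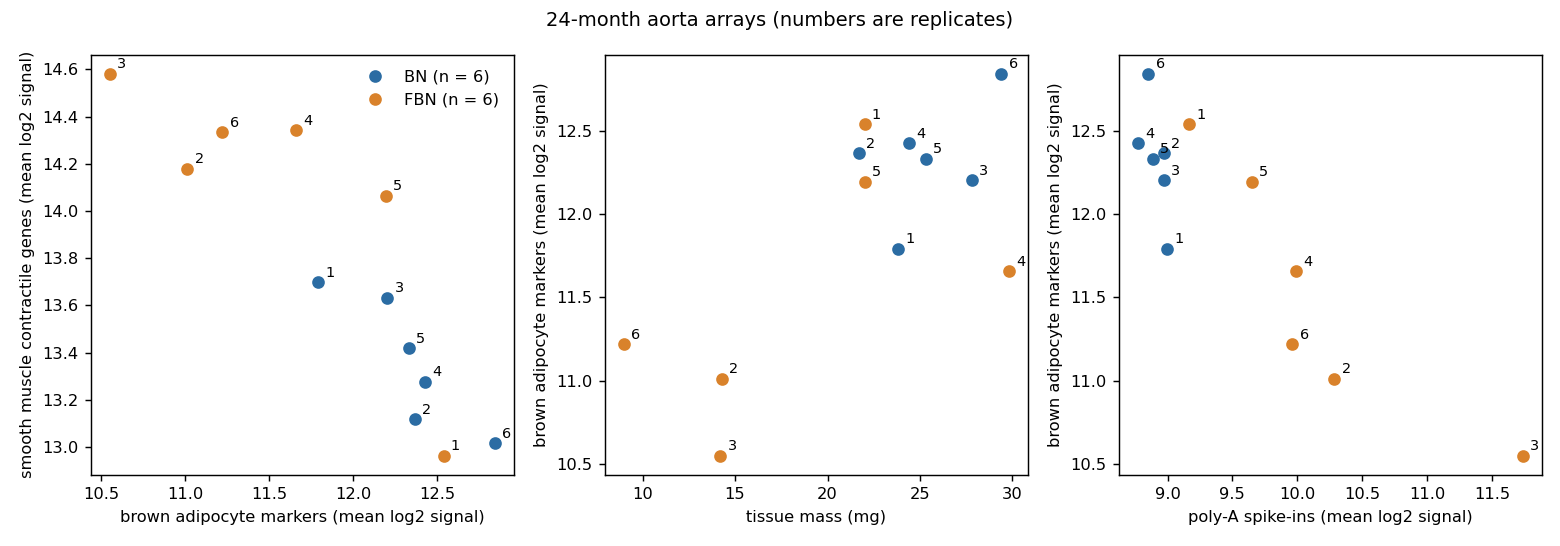
Each point is one 24-month aorta array, numbered by replicate. From left to right the panels plot the mean log2 signal of 18 contractile genes against that of 11 brown adipocyte markers, the brown adipocyte mean against tissue mass in mg, and the brown adipocyte mean against the mean log2 signal of the poly-A spike-ins. FBN array 1 lies among the BN arrays in the left panel, and the spike-in ranges of the strains do not overlap in the right panel.

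In the comparison of strains, 2527 of 16717 probe sets differed (15.1%), of which 1193 were higher in FBN (7.14%) and 1334 lower (7.98%). The median over all tested probe sets was 0.02. By gene symbol, 714 genes had a probe set that was higher and 998 one that was lower, and 14 genes had both. Differences above 1 log2 unit were found in 248 higher and 421 lower probe sets. The 12 arrays split without overlap in 744 of the changed probe sets, 398 above and 346 below BN. Over all tested probe sets the groups did not overlap in 893 (5.34%), with FBN above in 2.92% and below in 2.42%.

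The number of changed probe sets depended on single arrays and on covariates. Without FBN array 1 it was 6061. Leaving out FBN array 2, 3, 4 or 6 gave 1357, 945, 1302 or 1136, and leaving out BN array 2, 4, 5 or 6 gave 1200, 1662, 1500 or 1268. With each array's brown adipocyte mean as a covariate 834 probe sets passed (4.99%; 2.58% higher and 2.4% lower), of which 349 of the 1193 higher and 321 of the 1334 lower ones were among the first calls. With tissue mass as the covariate 923 passed (5.52%; 2.84% higher and 2.69% lower), with 433 and 424 of the first calls. With the spike-in mean as the covariate, a fit added after its values were seen, 75 passed, 70 of them first calls, and the median standard error rose from 0.195 to 0.257. The spike-in levels of the strains did not overlap at 24 months, so their parts cannot be told apart in these arrays.

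The largest rise among named genes belonged to Dmp1, dentin matrix protein, a secreted phosphoprotein of bone and tooth mineral. Its signals were 39.1, 86.4 and 162 in BN and 978, 3967 and 5592 in FBN (5.20 ± 0.53, adjusted p = 3.33e-08), so the lowest FBN array was above the highest BN array. Trio gave 119.6, 226 and 259.9 in BN and 2186, 3460.0 and 3972 in FBN (3.94 ± 0.24, adjusted p = 4.22e-13). Msrb3, a methionine sulfoxide reductase, gave 340.4, 443 and 529 in BN and 2679.6, 6268 and 7188 in FBN (3.62 ± 0.42, adjusted p = 4.30e-07). Echdc2, a mitochondrial protein with an enoyl-CoA hydratase domain, gave 62.6, 134 and 193 in BN and 810.2, 1184 and 1860.3 in FBN (3.34 ± 0.40, adjusted p = 8.56e-07). In all 4 genes the strains were separated with no overlap. A probe set without a gene symbol in the annotation used rose further, by 6.88 ± 0.56, with BN signals of 6.53 to 105 and FBN signals of 1772 to 5867.

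The next largest rises among genes with a symbol were those of Agtr1b, Itga1 and Fbln1. Agtr1b, the type 1b angiotensin II receptor, had signals of 33.5, 69.1 and 109 in BN and 121, 580.0 and 689.7 in FBN (2.79 ± 0.60, adjusted p = 0.00341). Itga1, the integrin alpha 1 chain of a collagen receptor, had 513, 603 and 753 in BN and 2081, 4082 and 4993 in FBN (2.59 ± 0.26, adjusted p = 3.33e-08). Fbln1, the matrix glycoprotein fibulin 1, had 8.92, 67.7 and 124 in BN and 173, 333 and 481 in FBN (2.55 ± 0.59, adjusted p = 0.00565). The groups did not overlap in these 3 genes, although FBN array 1 was the lowest FBN array for Agtr1b and Itga1.

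Of the remaining large rises, Fubp3 (a single-stranded nucleic acid binding protein) at 2.17 ± 0.16, Prps2 (an enzyme that makes phosphoribosyl pyrophosphate for nucleotide synthesis) at 2.0 ± 0.19 and Marveld1 (a membrane protein) at 1.97 ± 0.35 had no overlap between strains. The same held for Ttr, the thyroid hormone carrier transthyretin (2.06 ± 0.65, adjusted p = 0.0343), and for Rup2, a urinary protein gene with close relatives (2.02 ± 0.66, adjusted p = 0.0389). Rnf207 (2.46 ± 0.86), Camk2n1, an inhibitor of calmodulin kinase II (2.25 ± 0.68), and Dhrs7c, a dehydrogenase of the striated muscle reticulum (1.99 ± 0.59), overlapped. In each of them FBN array 1 lay within or below the BN range, at 28.2, 69.3 and 89.3.

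Probe sets of one gene did not always move together. Prps2 rose in 3 of 3 tested probe sets (1.30 to 2.22). The second probe set of Trio differed by 0.15, that of Fubp3 by -0.25, that of Fbln1 by -0.08, that of Marveld1 by -0.01 and that of Msrb3 by 0.87, and none of these 5 was called. Other probe sets of Rup2 (-0.12, at a BN median signal of 2478.5, and 1.63), Camk2n1 (0.60) and Rnf207 (1.60) were not called either. For these genes the difference is therefore that of the named probe set and not of the gene as a whole. Dmp1, Echdc2, Agtr1b and Itga1 each had 1 tested probe set.

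The largest falls in FBN included Scgb1c1, Mb and Alb. Scgb1c1, a secretoglobin, had signals of 279, 384 and 712 in BN and 5.43, 52.5 and 295 in FBN (-3.18 ± 0.78, adjusted p = 0.00894). Mb, the oxygen store myoglobin, had 671, 1380.0 and 2532 in BN and 65.5, 216 and 409 in FBN (-2.81 ± 0.68, adjusted p = 0.00768). Alb, serum albumin, had 21961, 25656 and 33629.8 in BN and 2112, 5014 and 14065 in FBN (-2.30 ± 0.50, adjusted p = 0.00365) and fell in 2 of 2 probe sets. The strains did not overlap for Mb and Alb, and overlapped by 1 FBN array for Scgb1c1.

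Hrh3, the histamine H3 receptor, fell from 758, 1626 and 2965 in BN to 50.7, 364 and 618 in FBN (-2.61 ± 0.44, adjusted p = 3.08e-04). Popdc3, a cyclic AMP binding protein of striated muscle, gave 409, 1280.2 and 1669 in BN and 80.6, 162 and 604 in FBN (-2.53 ± 0.38, adjusted p = 6.85e-05). Spink5, a serine protease inhibitor of epithelia, gave 595, 745 and 1123 in BN and 68.4, 139 and 414 in FBN (-2.38 ± 0.47, adjusted p = 0.00151). Of these 3, only Popdc3 had overlapping groups, through its lowest BN and highest FBN array. Dhrs9, a retinol dehydrogenase (-2.70 ± 0.90), Fam13a (-2.44 ± 0.59), Rassf4 (-2.33 ± 0.69), the mitochondrial acyl-CoA synthetase Acsf2 (-2.17 ± 0.49), the neuregulin receptor Erbb3 (-2.16 ± 0.53) and Ilvbl (-2.16 ± 0.49) were the other large falls outside the fatty acid list. Brighter probe sets of Rassf4 differed by -0.73 and -1.01 and were not called. Median signals were low for Rassf4 (273 in BN and 56.0 in FBN) and Erbb3 (184 and 33.6), so the sizes of these falls are uncertain.

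**Figure D2:**
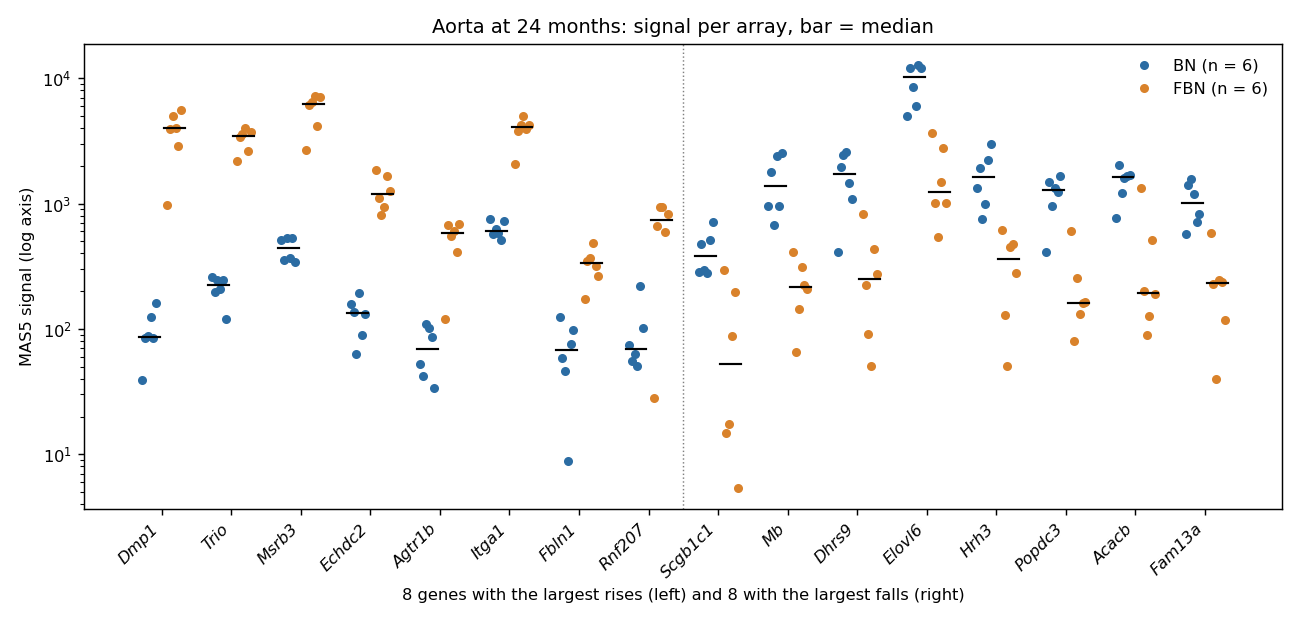
MAS5 signal on a log axis for the 8 named genes with the largest rises and the 8 with the largest falls in 24-month aorta. Each point is one array (6 BN, 6 FBN), and the bar is the group median. Dmp1 runs from 39.1 to 162 in BN and from 978 to 5592 in FBN, and for Rnf207 one FBN array lies below the BN arrays.

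Fatty acid and triglyceride synthesis genes were lower in part. Of 18 tested genes 8 were lower and 0 higher, against 7.98% and 7.14% of all probe sets, and the list's median was -1.20 against 0.02 over all. Slc25a1, which exports citrate from mitochondria for fatty acid synthesis, had signals of 5397, 8105 and 11667 in BN and 1894, 2438 and 3671 in FBN (-1.69 ± 0.34, adjusted p = 0.00209). Me1, the malic enzyme that supplies NADPH, had 14670.3, 24621 and 30022 in BN and 4132, 6047 and 11295 in FBN (-1.86 ± 0.41, adjusted p = 0.00401). Elovl6, which lengthens palmitate, had 5027, 10211 and 12699.8 in BN and 536, 1244 and 3631 in FBN (-2.63 ± 0.65, adjusted p = 0.00892). These 3 genes showed no overlap between the strains. Gpam, the first enzyme of glycerolipid synthesis (659.8, 1423 and 1973 in BN and 145, 253 and 728 in FBN, -2.29 ± 0.59, adjusted p = 0.012), and Acacb, the acetyl-CoA carboxylase that makes malonyl-CoA at mitochondria (768, 1626 and 2045 in BN and 90.0, 195 and 1335 in FBN, -2.47 ± 0.83, adjusted p = 0.0427), overlapped. Members with no call included Scd2, a stearoyl-CoA desaturase, at 0.89 and Elovl5 at 0.00.

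The list's values were also computed with covariates. With the brown adipocyte mean as a covariate its median was -0.34, with 6 lower and 1 higher, and with tissue mass it was -0.62, with 5 lower and 0 higher. Slc25a1 then stood at -1.03 (adjusted p = 0.00333), Me1 at -0.97 (5.34e-04 as adjusted p) and Elovl6 at -1.18 (0.00214) with the adipocyte covariate. Acacb was not called there, at -0.79 (adjusted p = 0.391). With the spike-in covariate no member of the list passed, and without FBN array 1 there were 14 lower and 1 higher (median -1.40). Leaving out FBN array 2, FBN array 3 or BN array 6 gave 5, 4 or 5 lower.

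The upstream sequences of 3 of these genes are shown because 8 of the list's members were lower and a common promoter element can be looked up in them. A CCAAT box, read as CCAAT on either strand (ATTGG when it lies on the other strand), is a common promoter element bound by the nuclear factor Y complex. It was searched in the 250 bases before the annotated start in the RefSeq promoters of assembly GRCr8, a BN genome, so the letters are not those of FBN rats. Of the 18 tested list genes 13 matched a promoter entry and 10 of these 13 held the motif, as did 4 of the 5 matched genes that were lower. The motif was thus about as common over all matched list genes as in the lower ones, and does not set the lower ones apart. Acly, also lower and with the motif, is not shown. The share over all 27457 genes of the promoter table, tested here or not, was 36.1%. Each stretch runs 5' to 3' along the gene's own strand, with the motif in capitals.
Slc25a1, chr11:96559804-96560053, plus strand: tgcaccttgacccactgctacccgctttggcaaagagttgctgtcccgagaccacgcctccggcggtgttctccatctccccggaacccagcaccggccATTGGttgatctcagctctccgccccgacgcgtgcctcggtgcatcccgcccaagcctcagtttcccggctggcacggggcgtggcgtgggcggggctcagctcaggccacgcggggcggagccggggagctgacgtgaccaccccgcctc
Gpam, chr1:264175912-264176161, minus strand: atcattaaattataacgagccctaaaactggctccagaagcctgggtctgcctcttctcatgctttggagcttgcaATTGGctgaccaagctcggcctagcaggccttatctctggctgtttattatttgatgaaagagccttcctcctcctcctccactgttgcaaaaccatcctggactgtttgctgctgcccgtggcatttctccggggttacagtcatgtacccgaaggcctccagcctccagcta
Acacb, chr12:48138215-48138464, minus strand: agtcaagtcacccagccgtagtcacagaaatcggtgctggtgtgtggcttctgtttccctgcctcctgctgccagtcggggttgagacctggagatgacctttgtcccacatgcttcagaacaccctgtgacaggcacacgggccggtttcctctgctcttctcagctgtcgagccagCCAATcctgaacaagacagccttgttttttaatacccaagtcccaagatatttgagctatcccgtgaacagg
The match begins 151 bases before the start in Slc25a1, 174 in Gpam and 72 in Acacb. It is a description of these letters, and no binding was measured in these samples.

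Fatty acid oxidation held fewer calls. Of 19 tested fatty acid oxidation genes 5 were lower and 0 higher, where 7.98% and 7.14% of all probe sets were. The list's median was -1.03. Acadsb, a dehydrogenase of short branched acyl-CoA, had signals of 508, 739 and 1040.4 in BN and 166, 266 and 655 in FBN (-1.41 ± 0.33, adjusted p = 0.00656). Acsl5, which activates long-chain fatty acids, had 3358, 9424 and 14483 in BN and 1411, 2034 and 5166 in FBN (-1.92 ± 0.54, adjusted p = 0.0192). Acads, the short-chain acyl-CoA dehydrogenase (-1.47 ± 0.48), and Cpt2, the inner carnitine palmitoyltransferase (-1.59 ± 0.54), were also lower. FBN arrays reached into the BN range in all 4. With the adipocyte covariate the median was 0.00 and 1 member was lower, Acadsb at -0.93 (adjusted p = 0.0484). Without FBN array 1 there were 14 lower and 1 higher (median -1.30). Leaving out FBN array 2, 3, 4 or 6 gave 2, 2, 2 or 1 lower, and leaving out BN array 2, 3, 4, 5 or 6 gave 2, 3, 2, 2 or 1.

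Mitochondrial and glycolytic genes gave few calls, at shares near the 7.98% of all probe sets that were lower. In oxidative phosphorylation 3 of 44 tested genes were lower and 0 higher, with a median of -0.67 and 1 positive difference. The 3 were the complex I subunits Ndufa3 (-0.75 ± 0.25), Ndufv3 (-1.14 ± 0.38) and Ndufb5 (-0.95 ± 0.33). In the citric acid cycle 2 of 18 were lower, Suclg2 at -0.86 ± 0.29 and Pdha1 at -0.78 ± 0.27, and in glycolysis 1 of 16, Pgam1 at -0.69 ± 0.24. These 3 lists had no call with the adipocyte covariate, and medians of -0.01, -0.03 and -0.06. The counts turned on the processing: with no filter the 3 lists had 0 lower, with quantile normalization 11, 2 and 2, with the 12 arrays alone 17, 15 and 5, in the fit of all 71 arrays 31, 17 and 7, and with array weights 43, 18 and 14.

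The fat cell markers themselves were split. Of 11 tested brown adipocyte genes 4 were lower and 0 higher, where 7.98% and 7.14% of all probe sets were. Of the 11 differences 10 were negative, and the median was -0.63. Fabp3, a fatty acid carrier, had signals of 11685, 22369 and 36184 in BN and 2018, 5526 and 15754 in FBN (-1.83 ± 0.54, adjusted p = 0.0251). Slc27a2, a fatty acid transporter, had 2601, 5321 and 12966 in BN and 359, 1156 and 5778 in FBN (-1.96 ± 0.62, adjusted p = 0.0345). Acot2, a mitochondrial thioesterase, had 6289, 10820.1 and 14721 in BN and 1746, 2829.5 and 8096 in FBN (-1.61 ± 0.41, adjusted p = 0.0116). Kcnk3, a potassium channel, was lower by a smaller amount (-0.91 ± 0.28, adjusted p = 0.0288). Ucp1 did not pass, at -0.28 ± 0.29 (adjusted p = 0.477), nor did the fat hormone adiponectin, Adipoq, at -0.57 ± 0.35 (adjusted p = 0.217). Of 11 general adipocyte genes none was called, all 11 differences were negative and the median was -0.74. No marker of either list was listed at a signal of 0. With tissue mass as the covariate Ucp1 stood at 0.16.

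Contractile genes of smooth muscle had positive differences in 18 of 18 cases, with a median of 0.71. Only 2 of the 18 passed, not far from the 7.14% of all probe sets that were higher. Pln, phospholamban, which restrains the calcium pump of the reticulum, had signals of 2447, 3367 and 6279.8 in BN and 3212, 11075 and 13704 in FBN (1.36 ± 0.45, adjusted p = 0.0422) and rose in 2 of 2 probe sets. Mylk, myosin light chain kinase, had 26390.2, 29717 and 33235 in BN and 32039, 35169 and 37843 in FBN (0.25 ± 0.08, adjusted p = 0.0294), while its second probe set differed by -0.23. Acta2, smooth muscle actin, did not pass at 0.89 ± 0.39 (adjusted p = 0.0969), nor did Myh11 at 0.51 ± 0.26 (adjusted p = 0.146). With the adipocyte covariate the list's median was 0.05, with the spike-in covariate it was -0.11, and without FBN array 1 the median was 0.99 and 12 of 18 passed.

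Matrix and signalling genes of the wall gave few calls. In extracellular matrix structure 2 of 20 were higher and 1 lower, with a median of 0.37. These shares, and those of the protease and calcification lists, are near the 7.14% higher and 7.98% lower of all probe sets. Ogn, the small proteoglycan osteoglycin, had signals of 12537, 16338 and 23484 in BN and 20854, 45028 and 48437 in FBN (1.22 ± 0.32, adjusted p = 0.0128). Lama4, a laminin chain of vessel basement membranes (0.72 ± 0.22), was higher and Col4a2, a collagen IV chain (-0.42 ± 0.13), lower. Elastin, Eln, had 7266, 12215 and 16138 in BN and 8236, 18511 and 22901 in FBN and did not pass (0.36 ± 0.41, adjusted p = 0.51). Tgm2, which crosslinks matrix proteins, was the 1 of 16 protease and crosslinking genes that was higher, at 12222, 14274 and 18060.5 in BN and 19315, 23257 and 27973 in FBN with no overlap (0.68 ± 0.21, adjusted p = 0.0306). Its second probe set differed by 0.39 with no call. In the same list dimmer probe sets of Timp3 were lower, at -1.44 and -0.45 (adjusted p = 9.73e-04 and 0.0233). Both were positive at 6 and 15 months and were called in the test of a change with age. Comp, cartilage oligomeric matrix protein, was the 1 of 9 calcification genes called (1.64 ± 0.50). By brightest probe sets, none of these 3 lists held a call with the adipocyte covariate.

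Among genes of vascular tone, 2 of 16 were higher and 0 lower, where 7.14% and 7.98% of all probe sets were. With the adipocyte covariate there were 2 higher and 2 lower, and with tissue mass 2 higher and 1 lower. Besides Agtr1b this was Npr1, the atrial natriuretic peptide receptor, at 1647, 2162 and 2622 in BN and 2190.4, 5222 and 6366 in FBN (1.10 ± 0.36, adjusted p = 0.0415). The type 1a angiotensin receptor Agtr1a, the main form in rat vessels, differed by -0.75 with no call. Agtr1b, with the adipocyte covariate, stayed higher at 2.03 (adjusted p = 0.0238) and Npr1 did not pass (0.38, adjusted p = 0.378). Of 19 TGF beta and BMP genes 15 had positive differences, with a list median of 0.37. Only Tgfbr3, the co-receptor betaglycan, was called by its brightest probe set. Tgfbr3 was lower without overlap, at 527, 582 and 746 in BN and 161, 234 and 449 in FBN (-1.27 ± 0.30, adjusted p = 0.00679). A probe set of Smad6 that did not enter the list count was lower too. Of 16 ion channel and pump genes 13 had positive differences, with a list median of 0.28. Only Atp2b4, a plasma membrane calcium pump, was called by its brightest probe set. It stood at 243, 379 and 456 in BN and 108, 179 and 199 in FBN, lower without overlap (-1.11 ± 0.31, adjusted p = 0.021). Dimmer probe sets of Clic4 (-0.85 and -0.63, adjusted p = 0.00765 and 0.0147) and Abcc9 (-0.74, adjusted p = 0.0057) were lower too. In younger aortas Atp2b4 differed by 0.15 at 6 and 1.51 at 15 months. Its strain difference changed with age (-1.93, adjusted p = 0.0116). The same test called these probe sets of Clic4, Abcc9 and Smad6, which had positive differences at 6 and 15 months.

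Most tested genes of cytosolic ribosomal proteins, the protein parts of the ribosome, were higher. Of 26 tested members 20 were higher and 0 lower, all 26 differences were positive and the median was 0.35, where 7.14% of all probe sets were higher. Rps6, a small-subunit protein, had signals of 30940.3, 34193 and 36768 in BN and 40263, 41761 and 43836 in FBN (0.31 ± 0.06, adjusted p = 0.00206). Rps15, also of the small subunit, had 23299, 25807 and 28759.8 in BN and 30912, 33162 and 35735 in FBN (0.37 ± 0.08, adjusted p = 0.00339). Rpl12, of the large subunit, had 21795, 24827 and 26458 in BN and 25885, 34089 and 36479.6 in FBN (0.45 ± 0.10, adjusted p = 0.00364). Rps24 had 29626, 35120.0 and 43568 in BN and 40238, 45475 and 52975 in FBN (0.40 ± 0.09, adjusted p = 0.00387), with its second probe set at 0.09. The shift was about 0.11 to 0.56 over the list, so small beside the fat and strain genes, and Rps6 and Rps15 separated the strains without overlap. The list's mean log2 signal ran from 14.66 to 14.89 in BN and from 14.91 to 15.29 in FBN.

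The ribosomal values were also computed with the covariates. With the adipocyte covariate 17 of 26 were higher (median 0.28) and with tissue mass 17 of 26 (median 0.31). Without FBN array 3 there were 13 of 26. With quantile normalization 11 of 26 passed (median 0.33), and with the spike-in covariate 0 passed (median 0.20). Without FBN array 1 there were 24 of 26 (median 0.39). Ribosomal protein genes have many processed pseudogenes, so signals of near-identical copies cannot be separated by these probes.

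**Figure D3:**
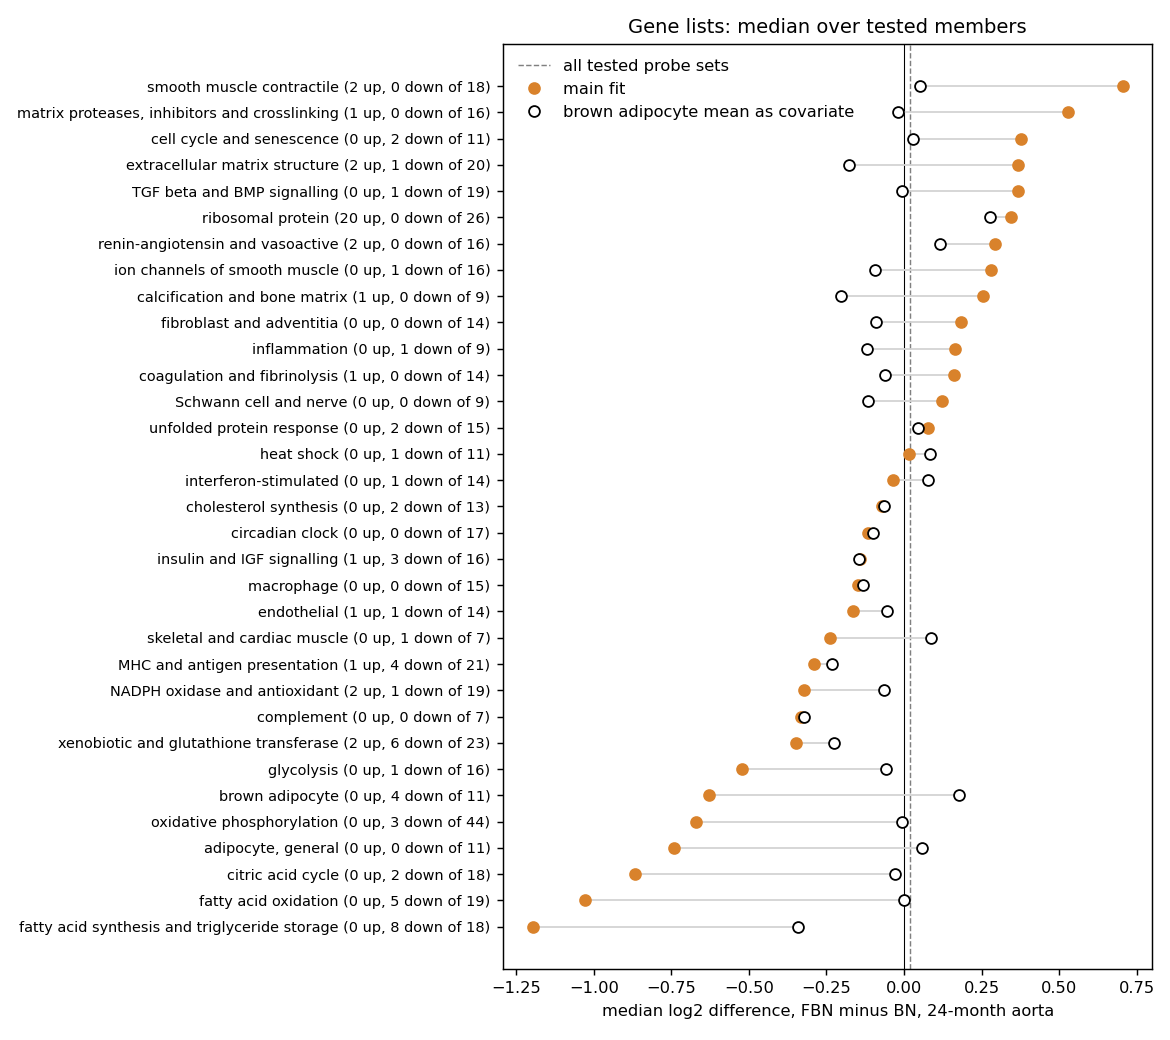
Median log2 difference (FBN minus BN, 24-month aorta) over the tested members of each list with at least 4 of them. Filled points are from the main fit, open points from the fit with the brown adipocyte mean as a covariate, and the dashed line is the median over all tested probe sets (0.02). Row labels count members higher and lower in the main fit. The metabolic lists move from medians as low as -1.20 towards 0, and the ribosomal list moves from 0.35 to 0.28.

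Detoxifying enzymes held calls in both directions, more of them lower. Of 23 tested xenobiotic and glutathione transferase genes 6 were lower and 2 higher, with a median of -0.35, and the higher share is near the 7.14% of all probe sets. Cyp2e1, a cytochrome P450 that oxidizes ethanol and ketones, had signals of 7786, 11412 and 14581 in BN and 1266, 2030.5 and 11256 in FBN (-1.94 ± 0.42, adjusted p = 0.00365). Gsta4, a transferase for lipid peroxidation products, had 3004, 3620.4 and 3976 in BN and 1432, 1667 and 2459.8 in FBN with no overlap (-0.97 ± 0.23, adjusted p = 0.00628). Gstt1 (-0.56 ± 0.14) and Mgst2 (-0.64 ± 0.17) were lower by less. The adipocyte covariate left 3 lower and 0 higher. In the oxidant list of 19 genes 1 was lower and 2 were higher, near the 7.98% and 7.14% of all probe sets. Its median was -0.32, with 8 of 19 differences positive. Sod3, the extracellular superoxide dismutase of the vessel wall, was lower (20553, 28019 and 36165 in BN and 15397, 20185 and 21102 in FBN, -0.52 ± 0.12, adjusted p = 0.00578). Gpx1, glutathione peroxidase, was higher (0.54 ± 0.15), and so was Cybb, the catalytic subunit of the phagocyte NADPH oxidase (0.84 ± 0.26), whose second probe set differed by -0.04.

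Of 21 tested antigen presentation genes 4 were lower and 1 higher, where 7.98% and 7.14% of all probe sets were. RT1-Ba, the class II alpha chain, had signals of 2942, 4754 and 10186 in BN and 2064, 2831 and 3116 in FBN (-0.90 ± 0.21, adjusted p = 0.00679). Its partner RT1-Bb, the beta chain, went the other way at 710.0, 1073 and 2232 in BN and 1579, 1762 and 2798 in FBN (0.75 ± 0.21, adjusted p = 0.0181). RT1-DMb, which helps load peptides, was lower (-1.29 ± 0.39), as was the class I gene RT1-CE10 (-0.65 ± 0.17). One further probe set of RT1-Ba differed by 0.46 with no call. RT1 genes are polymorphic between strains and have close copies, so these values are uncertain as gene levels. Macrophage genes gave 0 calls of 15 with a median of -0.15.

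Lists of other cells and responses gave 0 to 4 calls each. Over all probe sets 7.14% were higher and 7.98% lower, so 1 or 2 calls in such a list are not far from that share. In the endothelial list of 14, only 3 differences were positive and the median was -0.165. Pecam1, an adhesion protein of endothelial junctions, was higher (0.43 ± 0.14), against the direction of most of its list. Egfl7, an endothelial secreted factor, was lower (-0.54 ± 0.17). Of the fits that each left out a single array, 3 kept the Pecam1 call and 6 kept the Egfl7 call. None of 14 fibroblast and adventitia genes passed in these brightest probe sets, and none of 9 Schwann cell and nerve genes did. Dimmer probe sets of 3 fibroblast list members were called: Fbln1 as above, Col1a2, a collagen I chain, at 1.11 (adjusted p = 0.032), and Dpt, the matrix protein dermatopontin, at -0.88 (adjusted p = 0.0458). Of the nerve list, 2 dimmer probe sets of Mbp, myelin basic protein, were lower, at -1.01 and -1.76 (adjusted p = 0.0394 and 0.0134). Mb was the 1 of 7 striated muscle genes called, and a dimmer probe set of Myh1 was higher at 0.49 (adjusted p = 0.0427). In the insulin and IGF list of 16, Igfbp3, an IGF binding protein (-0.90 ± 0.22), Pik3r1, a PI3 kinase regulatory subunit (-1.09 ± 0.29), and the kinase Akt2 (-0.72 ± 0.24) were lower, and the transcription factor Foxo3 was higher (0.73 ± 0.21). Pik3r1 separated the strains, at 1621, 2126 and 2592 in BN and 800.4, 988 and 1217 in FBN.

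Sterol, stress and growth genes added a few lower calls, where 7.98% of all probe sets were lower and 7.14% higher. List medians were -0.07 for cholesterol synthesis, 0.02 for heat shock, 0.08 for unfolded protein response and 0.38 for cell cycle. They were -0.04 for interferon-stimulated, 0.16 for inflammation and 0.16 for coagulation genes. Differences were positive in 8 of 11 cell cycle, 6 of 9 inflammation and 9 of 15 unfolded protein response genes. Fdft1, squalene synthase, was lower without overlap (1949, 2179 and 3414 in BN and 725, 926 and 1828 in FBN, -1.31 ± 0.24, adjusted p = 8.03e-04), with Hsd17b7 (-0.48 ± 0.16) the second of 13 cholesterol genes. Hspb8, a small heat shock protein (-0.90 ± 0.20), was lower in 2 of 2 probe sets. Sel1l (-0.50 ± 0.13) and Asns, asparagine synthetase (-1.72 ± 0.57), were lower in the unfolded protein response list of 15. Pcna, the DNA polymerase clamp, was lower by little (-0.34 ± 0.08). Ifit2 (-0.80 ± 0.21) was the 1 of 14 interferon-stimulated genes called, and the chemokine Ccl5 (-0.80 ± 0.24) the 1 of 9 inflammation genes. Thbd, thrombomodulin, was the 1 of 14 coagulation genes called and was higher (0.64 ± 0.22).

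Many of the changed probe sets also differed between the strains in aortas of other ages, which are separate arrays. At 6 months 537 of the 1193 higher probe sets (45%, and 41.6% of those higher at 6 months) and 573 of the 1334 lower ones (43% and 38.4%) were called the same way. At 15 months these were 493 (41.3% and 29.2%) and 637 (47.8% and 33.5%). Over all probe sets 7.72% were higher and 8.93% lower at 6 months (16.6% together), and 10.1% and 11.4% at 15 months (21.5%). Same-sign differences were found for 95.3% of the higher and 95.1% of the lower probe sets at 6 months and for 95% and 88.5% at 15 months. Of the lipid genes, Elovl6 differed by -2.40 at 6 months and -3.60 at 15 months, and Me1 by -1.42 and -2.54.

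Fat markers and tissue mass differed at those ages too. At 6 months the brown adipocyte mean was 12.57 to 12.82 in BN and 10.98 to 13.06 in FBN, the contractile mean 12.50 to 13.65 and 12.26 to 14.50, and the mass 21.4 to 29.6 and 8.5 to 28.9 mg. At 15 months the brown adipocyte mean was 12.24 to 12.84 in BN and 10.61 to 12.67 in FBN, the contractile mean 12.79 to 13.72 and 12.48 to 14.40, and the mass 20.1 to 26.3 and 6.0 to 29.8 mg. The FBN ranges reached lower in fat markers and mass at both ages, and their part in the shared differences was not tested.

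Mesenteric artery arrays shared fewer of these differences. At 6 months, where 5.06% of all probe sets were higher and 5.73% lower (10.8% together), 231 higher (19.4%, and 27.3% of those higher there) and 165 lower ones (12.4% and 17.2%) were called the same way. At 15 months, where 1.72% were higher and 1.4% lower (3.12%), it was 109 (9.14% and 37.8%) and 57 (4.27% and 24.4%). Differences had the same sign for 70.1% of the higher and 71.9% of the lower probe sets at 6 months. At 15 months these shares were 58.2% and 50.4%. Elovl6 differed there by 0.11 and -0.24, and Me1 by -0.01 and -0.11.

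**Figure D4:**
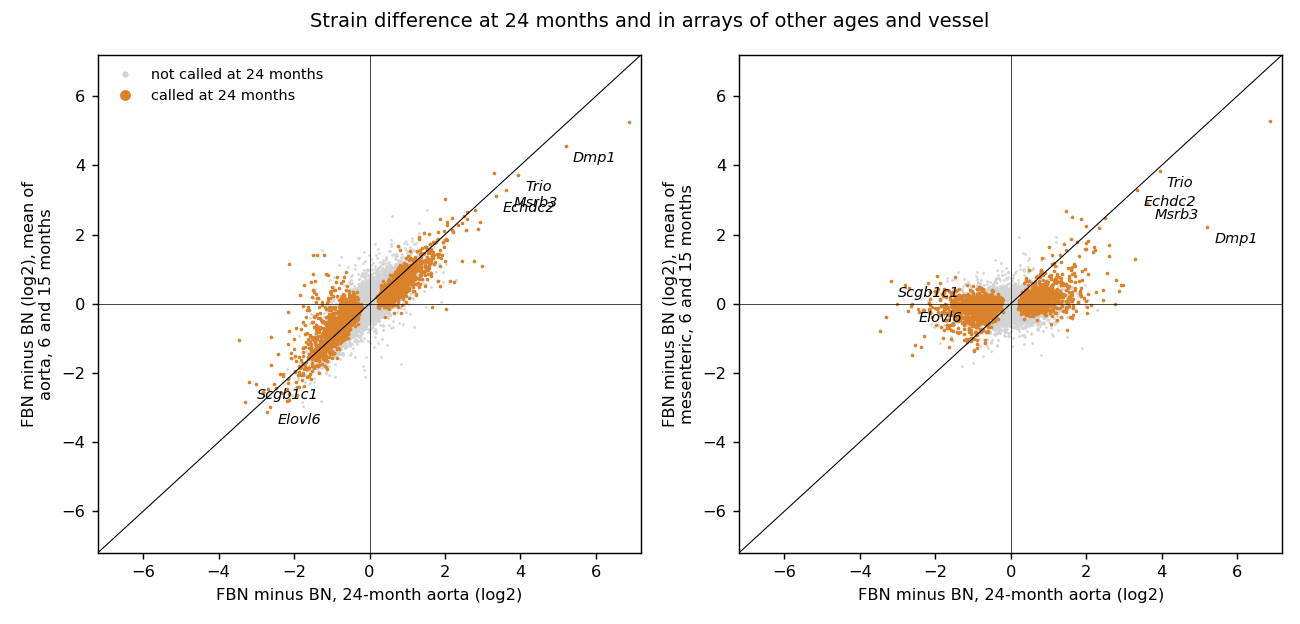
Each point is one of 16717 probe sets. The horizontal axis is the FBN minus BN difference (log2) in 24-month aorta, and the vertical axis is the mean of the differences at 6 and 15 months in aorta (left) and mesenteric artery (right). The diagonal marks equal differences. Elovl6 lies near the diagonal in aorta and near 0 in the mesenteric artery, and Trio lies near the diagonal in both.

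A core of 94 probe sets (0.562%) was called in the same direction in all 5 comparisons, that is, in aorta at 3 ages and in mesenteric artery at 6 and 15 months. Of these 70 were higher and 24 lower, and 44 gene symbols were among them. The 24-month groups did not overlap in 73 of the 94, and 79 stayed called with the adipocyte covariate. Trio differed by 3.94 at 24 months, by 3.68 and 3.78 in younger aortas and by 3.70 and 3.99 in mesenteric arteries. Echdc2 differed by 3.34, 3.43 and 2.79 in aorta and by 3.56 and 3.03 in mesenteric artery. For Dmp1 the aortic values (5.20, 4.15, 4.98) were above the mesenteric ones (2.41, 2.02). Msrb3, Itga1, Fubp3, Prps2 and Marveld1 completed the 8 largest mean rises among the core's probe sets with a gene symbol, and 1 probe set without a symbol had the largest of all, at 5.59.

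Lower members of the core had smaller differences. Cyp4v3, a fatty acid hydroxylase of the P450 family, had signals of 2455, 2781 and 3148 in BN and 1203, 1289 and 1695 in FBN (-1.06 ± 0.10, adjusted p = 1.10e-08). Pxmp4, a peroxisomal membrane protein, had 2034, 2430.3 and 3028 in BN and 958, 1198 and 1754 in FBN (-1.01 ± 0.13, adjusted p = 6.06e-06). Lcn2, the siderophore-binding lipocalin, had 518, 632 and 815 in BN and 175, 288 and 509 in FBN (-1.13 ± 0.22, adjusted p = 0.00158). In all 3 the strains did not overlap. Hyou1, a chaperone of the endoplasmic reticulum (-1.02 ± 0.19), Ythdf2, a reader of methylated adenosine in RNA (-1.06 ± 0.15), and Brcc3-ps7, annotated as a pseudogene (-0.98 ± 0.16), were also lower without overlap, and the second probe set of Ythdf2 differed by -0.08. Decr2, a peroxisomal reductase (-1.70 ± 0.37), and Lrrc8b, an anion channel subunit (-1.62 ± 0.45), overlapped.

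In 24-month mesenteric arrays, taken by their deposited labels, 93 of the 94 core probe sets had the opposite sign and 79 were called in the opposite direction. Trio stood at -3.79 there. Those labels run against the strain markers, so these arrays are not used as a comparison here.

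The direct test of a change with age gave few results. The strain difference at 24 months differed from the mean of those at 6 and 15 months in 54 probe sets (0.323%), 52 of them more negative and 2 more positive at 24 months. Of the 52, 51 were negative at 24 months and 37 were called lower there. All 52 were positive at 15 months and 36 at 6 months. Their median was -0.81 at 24, 0.85 at 15 and 0.15 at 6 months, and in the mesenteric artery 0.29 at 15 and -0.34 at 6 months. The 2 more positive probe sets had no gene symbol. Without FBN array 1 the count was 82, and with the adipocyte covariate 222.

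Map3k20, a stress-activated kinase, had the largest change (-2.92 ± 0.44, adjusted p = 5.47e-04). At 24 months its signals were 583, 807 and 1091 in BN and 209, 269 and 479.8 in FBN (-1.50 ± 0.36, adjusted p = 0.00749), without overlap and lower in FBN, whereas the difference was 2.66 at 15 and 0.18 at 6 months. Il17rc, an interleukin 17 receptor subunit, changed by -2.79 ± 0.60 (adjusted p = 0.0243), with signals of 160.4, 301 and 459 in BN and 23.5, 160.4 and 194 in FBN at 24 months and no call there (-1.26 ± 0.49, adjusted p = 0.0701). Dst, the cytoskeletal linker dystonin, changed by -2.34 ± 0.39 (adjusted p = 0.00164), with differences of 0.32 at 6, 1.37 at 15 and -1.49 at 24 months. Other probe sets of Map3k20 (0.68 and -0.05) and Dst (0.31 and 0.91) were not called at 24 months. Nor was a change with age called in them, at 0.03 and 0.20 for Map3k20 and -0.54 and 0.24 for Dst. Their BN median signals were 9742 and 571 for Map3k20 and 2120 and 9663 for Dst. For both genes the change is therefore that of the named probe set and not of the gene as a whole.

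**Figure D5:**
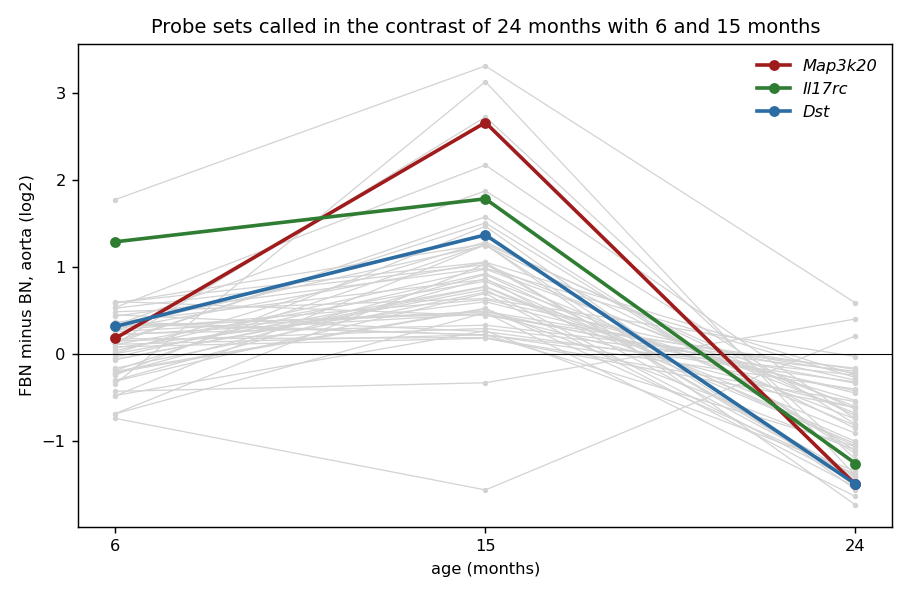
Strain difference in aorta (FBN minus BN, log2) at 6, 15 and 24 months for the 54 probe sets called in the contrast of 24 months with the mean of 6 and 15 months. Lines join the ages of one probe set, and 3 named genes are coloured. Most lines are above 0 at 15 months and below 0 at 24 months, as Map3k20 with 2.66 and -1.50.

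The place of the changed genes was described by their neighbours, with no test. In the gene order of GRCr8, the next tested neighbour of a higher gene was also higher in 62 of 698 cases (8.88%, with 7.19% of placed genes higher) and lower in 68. For lower genes the neighbour was also lower in 122 of 989 (12.3%, with 10.2% lower) and higher in 61. The longest runs held 4 genes, picked here for being the longest. One was a cluster of cytokine receptor genes, all lower in FBN: Ifnar2 and Ifnar1, the chains of the type I interferon receptor, Il10rb, shared by interleukin 10 family receptors, and Ifngr2, the interferon gamma receptor beta chain.

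Within that cluster Il10rb had signals of 3229.9, 3609.5 and 4153 in BN and 1614, 1845 and 2052 in FBN, with no overlap (-0.98 ± 0.10, adjusted p = 6.46e-08). Ifnar2 had 1313, 1673 and 1891 in BN and 776, 797 and 1502 in FBN (-0.84 ± 0.16, adjusted p = 8.82e-04), with FBN array 1 alone in the BN range. Ifnar1 had 779.8, 1084 and 1305 in BN and 512, 560.3 and 788 in FBN (-0.84 ± 0.21, adjusted p = 0.00895), with 2 of its 5 tested probe sets lower, and Ifngr2 had 2229, 2647 and 3328 in BN and 1380.3, 1695 and 2661 in FBN (-0.62 ± 0.22, adjusted p = 0.0494), with 1 of 2 probe sets lower. In younger aortas Il10rb differed by -0.63 and -0.89 and Ifnar2 by -0.80 and -0.76. Ifnar1 was not called at either age (-0.41 and -0.39), and Ifngr2 was called at 15 months (-0.94) but not at 6 (-0.48). With the adipocyte covariate Il10rb (-0.89), Ifnar2 (-0.64) and Ifnar1 (-0.76) stayed lower and Ifngr2 did not pass (-0.19, adjusted p = 0.471). The other run held Sptbn1, Acyp2, Psme4 and Erlec1, all lower, at -1.01, -1.25, -0.94 and -0.49.

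The 100 called genes counted here leave out those named only for a dimmer probe set or for the other run. Of the 100, 13 stayed called under every alternative in which they were tested, the spike-in covariate and each left-out array included. They were Dmp1, Trio, Msrb3, Echdc2, Itga1, Fubp3 and Prps2, all higher, and Cyp4v3, Pxmp4, Brcc3-ps7, Il10rb, Hspb8 and Dst, all lower. Dmp1, Trio, Echdc2, Fubp3, Prps2, Brcc3-ps7, Hspb8 and Dst lay below the stricter filter and were not tested there. None of the fatty acid synthesis or ribosomal genes was among them.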

How the data were processed

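Arrays were grouped by the strain, vessel and age in the labels. The deposited values are intensity, linear MAS5 signals for 31099 probe sets, made with GCOS and MAS5 per the submitters' processing notes, with versions not given in the sources used here. Per the labels, a fibrous-tissue kit gave the RNA and biotin-labelled cRNA was made from under 1 ug of it. The mean of each array, with 2% of probe sets trimmed at either end, lay between 1000.3 and 1000.4, so array scaling fixes the total and differences are relative.

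Signals were log2-transformed. Of the probe sets, 57 controls were left out and 16717 tested, those whose mean over the aorta or the mesenteric arrays reached 8.19 (a signal of 292). limma 3.58.1 (R 4.3.3, statmod 1.5.0) fitted 6 group means to 35 aorta arrays, and separately to 36 mesenteric arrays, with trend and robust eBayes. Tissue mass and array measures were compared by exact two-sided permutation tests. Gene symbols came from the platform's table (12889 tested probe sets with 1 symbol, 9785 genes), and 20764 identifiers matched RefSeq's GRCr8 table. Because the data name no genome build, that table gave names, neighbours and promoter letters only, and a planned count per chromosome is not given. Each list gene entered by its brightest tested probe set, so list counts can leave out calls in dimmer probe sets.

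Named genes are the 15 largest rises and 15 largest falls with 1 symbol, up to 4 members per list with the smallest p, 3 genes per direction for the change with age, and 8 per direction called in all 5 strain comparisons. Ucp1, Adipoq, Myh11, Acta2, Eln, members named without a call (Scd2, Elovl5, Agtr1a), the probe set without a symbol and the receptor cluster were chosen after their values were seen. So were dimmer probe sets of list members that are named for a call. The members, lists and tests were chosen with earlier results of these data known. The aorta fit was also run on simulated data, with noise drawn independently for each probe set and array. Those data hold no outlying array and no shared fat or spike-in shift, so that run cannot address them. Alternatives were quantile normalization, adding 81.1 to each signal, leaving out the filter, a filter at a signal of 1128, another variance model, array weights, other sets of arrays, covariates and leaving out each array. The number of arrays limits the precision.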

Additional observations from a re-analysis of the deposited data

Results flagged for a closer look

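For 106 genes, each of the 2 groups was searched on the log2 scale for an array whose gap to the nearest other array, as a share of the group's range, exceeds Dixon's 95% critical value for 6 samples. Of these 212 groups 25 had one, where chance gives about 5%, and 15 of the 25 were FBN array 1. The genes were named for their strain difference, so these counts are not independent of each other.

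FBN array 1 was the lowest FBN array for several genes that were higher in FBN. Agtr1b in FBN array 1 read 121, below 414 to 689.7 in the others, a gap of 0.707 of the log2 range. For Itga1 the signal of FBN array 1 was 2081, below 3784 to 4993 in the rest of its group, with a gap of 0.683 of that range. The Rnf207 signal in FBN array 1 was 28.2, below 588 to 941 elsewhere in the group (gap 0.866). Camk2n1 in FBN array 1 read 69.3, below 229 to 439 in the others, a gap of 0.647 of the log2 range. For Dhrs7c the signal of FBN array 1 was 89.3, below 429.5 to 873 in the rest of its group, with a gap of 0.689 of that range. The Marveld1 signal in FBN array 1 was 2371, below 4445 to 6261 elsewhere in the group (gap 0.647).

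The same array was lowest for further genes. Pln in FBN array 1 read 3212, below 10037 to 13704 in the others, a gap of 0.785 of the log2 range. For Ogn the signal of FBN array 1 was 20854, below 44244 to 48437 in the rest of its group, with a gap of 0.892 of that range. The Comp signal in FBN array 1 was 633, below 2296 to 4531 elsewhere in the group (gap 0.655). Foxo3 in FBN array 1 read 3094, below 5216 to 5817 in the others, a gap of 0.828 of the log2 range. For Rpl12 the signal of FBN array 1 was 25885, below 33919 to 36479.6 in the rest of its group, with a gap of 0.788 of that range. The Myh11 signal in FBN array 1 was 30003, below 50987 to 61449 elsewhere in the group (gap 0.74). It was the highest FBN array for genes that were lower in FBN. Fdft1 in FBN array 1 read 1828, above 725 to 989 in the others, a gap of 0.665 of the log2 range. For Ythdf2 the signal of FBN array 1 was 2473, above 1478 to 1715 in the rest of its group, with a gap of 0.711 of that range. The Ifnar2 signal in FBN array 1 was 1502, above 776 to 909 elsewhere in the group (gap 0.76).

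The other arrays that stood apart were of both strains. Trio in BN array 6 read 119.6, below 197 to 259.9 in the others, a gap of 0.641 of the log2 range. For Fubp3 the signal of BN array 4 was 129.9, below 164 to 189 in the rest of its group, with a gap of 0.63 of that range. The Ifit2 signal in BN array 4 was 2358, below 3554 to 4054 elsewhere in the group (gap 0.757). Atp2b4 in FBN array 5 read 108, below 159 to 199 in the others, a gap of 0.635 of the log2 range. For Sel1l the signal of BN array 6 was 555, below 779 to 927 in the rest of its group, with a gap of 0.662 of that range. The Pcna signal in BN array 5 was 4916, below 5788 to 6358 elsewhere in the group (gap 0.634). Cyp4v3 in FBN array 5 read 1695, above 1203 to 1328 in the others, a gap of 0.711 of the log2 range. For Il17rc the signal of FBN array 5 was 23.5, below 102 to 194 in the rest of its group, with a gap of 0.697 of that range. The Ucp1 signal in BN array 6 was 102351, above 73208 to 80742 elsewhere in the group (gap 0.708). Ifnar1 in FBN array 5 read 788, above 512 to 602 in the others, a gap of 0.6254 of the log2 range.

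Strain differences that changed with age, by the direct limma contrast of 24 months with the mean of 6 and 15 months, were found in 54 probe sets. Those of the genes named for this change were -2.92 for Map3k20, -2.79 for Il17rc and -2.34 for Dst, in the named probe set of each. Il17rc at 24 months also holds one of the arrays above, FBN array 5.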

How the results depend on the processing

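The strain comparison gave 2527 changed probe sets. It gave 1530 with the stricter filter, 9829 with array weights, 5494 in 1 fit of all 71 arrays, 4857 with the 12 arrays alone, 923 with tissue mass, 834 with the brown adipocyte mean and 75 with the spike-in mean (added after the data were seen) as covariates. Leaving out single arrays gave 945 (without FBN array 3) to 6061 (without FBN array 1). Of the first calls 37.3% to 99.4% were kept when an array was left out, and 2.77% with the spike-in covariate, where 81 changed sign. Quantile normalization kept 92.6%, the offset 99.4%, no filter 66.8% and the other variance model 96.1%. FBN-higher calls were 47.2% of all, and 70.7% with the spike-in covariate.

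The change with age gave 54 probe sets, and 8 with the stricter filter, 367 with array weights, 83 in the fit of all 71 arrays, 94 with mass, 222 with the brown adipocyte mean, 35 with the spike-in mean, and 39 to 82 when an array was left out, the highest without FBN array 1. The tissue mass difference was -4.94 to -9.10 mg with one piece left out, and its unadjusted permutation p was under 0.05 only without FBN array 4. The median of the insulin and IGF list was -0.26, against -0.14, with the median over a gene's probe sets. All 12 strain placements held with 10 and 100 markers.

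Of 100 named called genes 45 lost the call with the adipocyte covariate, 41 with mass, 86 with the spike-in mean, 41 in at least 1 left-out array and 0 with the 12 arrays alone. The 86 do not count RT1-DMb, which was called in the main fit and reversed its sign with the spike-in covariate. Signs reversed for Ucp1 (0.16 with mass, 0.37 with the adipocyte and 0.50 with the spike-in covariate), Eln (-0.12, -0.46 and -0.60 in that order) and Adipoq (0.15 with the adipocyte, 0.31 with the spike-in covariate). With the spike-in covariate they also reversed for RT1-DMb (0.026), Myh11 (-0.044) and Acta2 (-0.15). The brown adipocyte mean includes Ucp1 itself. The cause was not tested in any of these. No paired analysis was possible because the labels give the arrays no replicate numbers, and arrays were numbered in accession order.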
